A study of Sus scrofa with 8 samples.

Results

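The 9 genes described here are KIF22, PPP4C, TFAP4, GPX1, ADGRE3, KANK2, CYP2J34, HCLS1 and a gene listed only as ENSSSCG00000031855. They are 9 of the 21301 genes in the files, and they were chosen by the measured difference in their UMI counts between DZ and ZZ pig embryos, in whole libraries or inside a cell population. Their DZ and ZZ values are therefore given as a description with no test, and tests are kept for developmental stage, cell population and mitotic state.

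Droplet scRNA-seq (10x Genomics 3' chemistry, which counts unique molecular identifiers, UMIs) was run on somites at embryonic day (E) 16, E18 and E21 and on myotome at E28. ZZ are Tibetan pigs and DZ are the offspring of Duroc and Tibetan pigs, and the study describes the crosses as sharing the female parent and differing in the male parent. Each breed and stage is 1 library, made from a pool of 5 embryos of a single sow, so that 8 libraries were analysed and each group holds n = 1. The breed of a library cannot be told apart from its sow, its litter and its processing, and the E28 stage cannot be told apart from the myotome dissection. Values over the 4 stages of a breed are given as mean ± SD (n = 4 libraries), where the SD holds the developmental change as well as library error.

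After cell filters, 74147 of 90688 barcodes were kept, with 5436 to 10956 cells and 39729919 to 57675376 UMIs per library. The E16-ZZ library stood apart, since 39.16% of its barcodes exceeded the limit of 10% mitochondrial UMIs, against 1.05 to 9.15% in the other 7 libraries. No pair of libraries shared more than 0.4% of its cell barcodes. Levels are in CPM, the UMIs of a gene per 1000000 UMIs of the library or population, and the intervals given are exact 95% Poisson intervals that cover counting error only. In whole-library sums, a smaller share of cells of a type and less RNA per cell cannot be told apart. Cell populations were set by marker gates, in which a cell needs at least 3 detected markers of a type. The gates held 56478 cells (76.2% of those kept), of which 24.3% had just the 3 markers, and the fibroblast-marker gate was broad, with 34450 cells. In the neural progenitor gate 776 of 852 cells had just the 3 markers, and that gate dropped out of the fits that asked for at least 4. Gates are named here by their markers and not as proven cell types.

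Somites are blocks of paraxial mesoderm that give rise to the skeletal muscle, vertebrae and connective tissue of the trunk, and their cells divide quickly while muscle precursors leave the cell cycle to become myocytes. KIF22 is a kinesin that binds chromosomes and moves them on the mitotic spindle, PPP4C is the catalytic subunit of protein phosphatase 4, and TFAP4 is a basic helix-loop-helix leucine zipper transcription factor tied to proliferation. GPX1 is the selenium enzyme that reduces hydrogen peroxide with glutathione, and CYP2J34 belongs to a cytochrome P450 family known for oxidizing arachidonic acid. ADGRE3 is an adhesion G protein-coupled receptor known from myeloid cells, KANK2 is a scaffold that binds talin at integrin adhesions, and HCLS1 is the cortactin relative of blood cells, an actin regulator.

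At all 4 stages, 3 of the 9 genes were higher in DZ (ENSSSCG00000031855, KANK2 and CYP2J34) and 5 were lower (KIF22, PPP4C, TFAP4, GPX1 and ADGRE3), whereas HCLS1 was higher in DZ at 3 stages. Over the 14353 genes tested, 7.94% were higher and 5.61% lower in DZ at all 4 stages. For 5 genes (KIF22, PPP4C, ADGRE3, CYP2J34 and ENSSSCG00000031855) no DZ library overlapped the ZZ libraries, a pattern held upwards by 0.369% and downwards by 0.188% of the tested genes. Because this contrast chose the genes, nothing is read from these counts. In the edgeR quasi-likelihood fit of DZ against ZZ with stage as a block, 1 of 14353 genes (0.00697%) passed an adjusted p of 0.05, while 895 genes (6.24%) had an unadjusted p under 0.05 and DESeq2 called 62. Without any single library, whichever of the 8 was left out, the edgeR fit called 0 genes. The called gene was ENSSSCG00000031855, which this contrast had chosen, so the call is no test of it. The other described genes that were tested had no edgeR call either. A list, interval or neighbour gene without a call below is therefore not set apart from them by this fit.

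**Figure D1:**
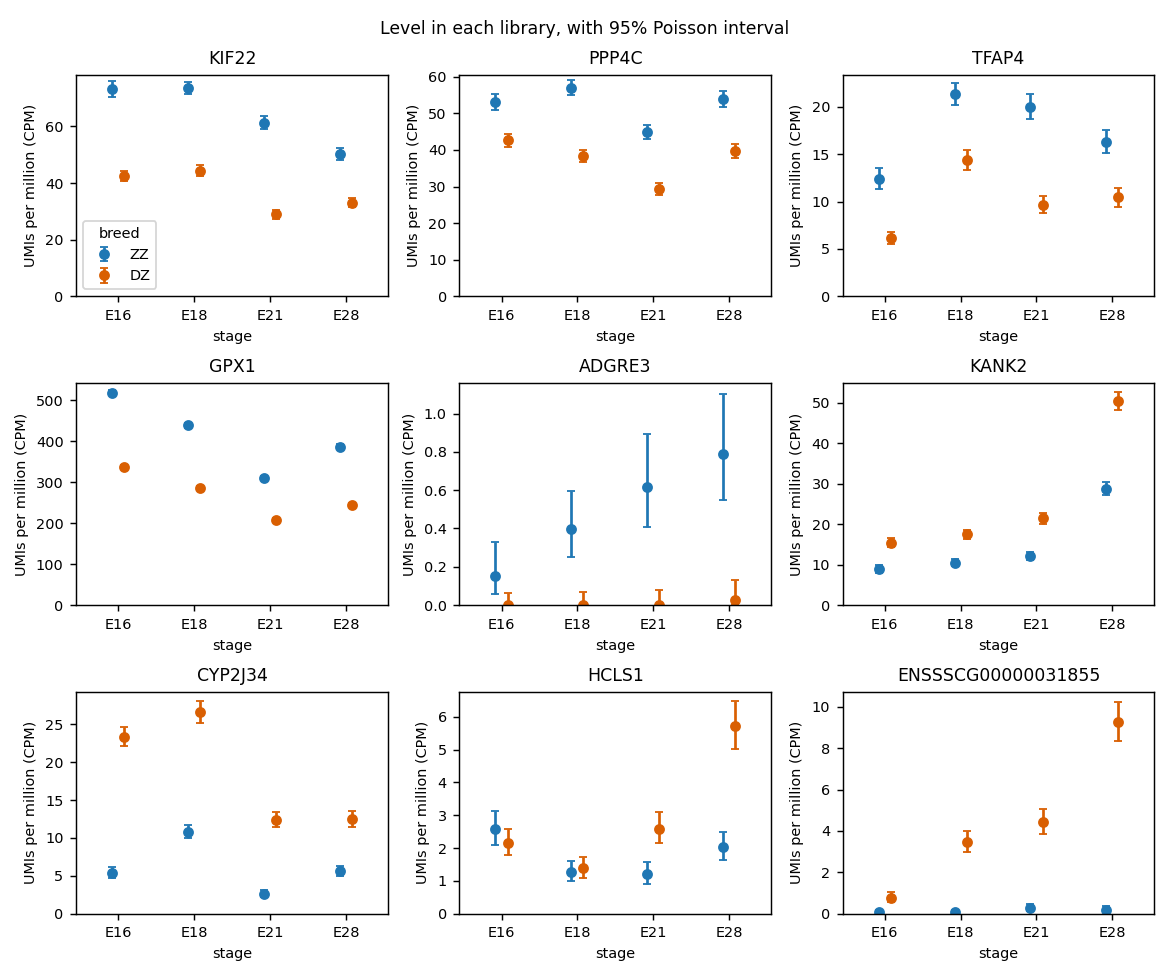
CPM (linear axis) of each of the 9 genes in the 8 libraries, by stage, with ZZ in blue, DZ in orange and bars for the exact 95% Poisson interval of each library. KIF22 runs from 50.3 to 73.4 CPM in ZZ and from 28.9 to 44.4 in DZ, whereas HCLS1 separates the breeds mainly at E21 and E28 and ADGRE3 is at or near 0 in every DZ library.

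KIF22 (chr3:18023104-18041732, plus strand, Sscrofa11.1) measured 73.1, 73.4, 61.3 and 50.3 CPM in ZZ at E16, E18, E21 and E28. In DZ it measured 42.5, 44.4, 28.9 and 33.1 CPM at the same stages. The lowest ZZ library lay above the highest DZ library, with means of 64.5 ± 11.1 in ZZ and 37.2 ± 7.42 in DZ (SD, n = 4). The ZZ level was 1.72, 1.65, 2.12 and 1.52 times the DZ level in stage order, a mean log2 ratio (DZ/ZZ) of -0.80 ± 0.20.

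Since KIF22 is a mitotic gene, its level was set beside the share of dividing cells. Cells with at least 5 mitotic markers (12 of the 14 listed were measured) made up 44.5, 44.5, 18.8 and 14.5% of ZZ cells and 43.7, 42.8, 22.8 and 12.4% of DZ cells from E16 to E28. With each cell thinned to 2000 UMIs the shares were 13.7, 20.8, 11.1 and 8.5% in ZZ and 15.4, 22.2, 12.2 and 7.7% in DZ, after 204 to 1363 shallower cells per library were left out. The unthinned share was lower in DZ at 3 of 4 stages and the thinned share was higher in DZ at 3 of 4. The part of these shares in the whole-library KIF22 values was not tested. Inside the mitotic-marker cells KIF22 measured 91.1, 99.1, 178 and 175 CPM in ZZ and 52.1, 59.3, 73.6 and 125 CPM in DZ, so that every stage kept the ZZ side, by 1.40 to 2.42 times. Cells with no mitotic marker held 9.72 to 24.1 CPM in ZZ and 4.12 to 16.8 CPM in DZ.

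KIF22 was higher in mitotic-marker cells than in cells with none in all 8 libraries, at 107 ± 48.9 against 11.8 ± 6.55 CPM (SD, n = 8 libraries). The log2 ratio was 3.38 ± 0.36 (SE, edgeR adjusted p = 5.2e-05). In that comparison 40.2% of 12687 genes were called (19.9% higher and 20.3% lower in mitotic-marker cells), and 4 of the 7 described genes that could be tested passed (KIF22, PPP4C, KANK2 and GPX1). All 12 other mitotic kinesins of a list made for KIF22 were also higher in mitotic-marker cells, with a median log2 ratio of 4.93 against -0.02 over all genes. Between the breeds, none of the 12 kinesins passed (edgeR, 1 at an unadjusted p under 0.05, DESeq2 0), but KIF22 itself had no edgeR call in that fit. Their log2 DZ/ZZ ratios ran from -0.19 (KIF20A) to 0.26 (CENPE) with a median of 0.01.

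**Figure D2:**
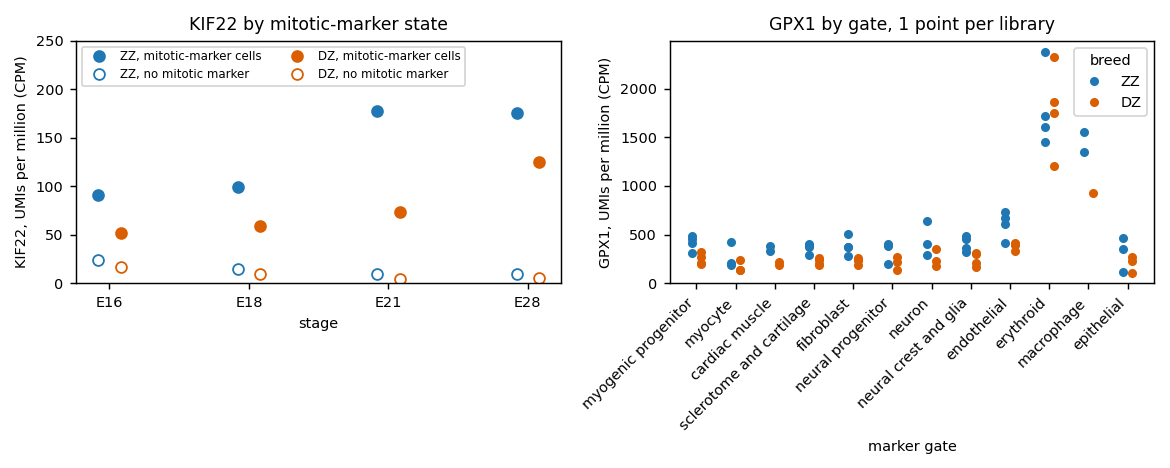
Left, KIF22 in CPM (linear axis) at each stage in mitotic-marker cells (filled) and in cells without mitotic markers (open), with ZZ in blue and DZ in orange. Right, GPX1 in CPM in each marker gate, 1 point per library with at least 20 gated cells. KIF22 in mitotic-marker cells at E21 is 178 CPM in ZZ against 73.6 in DZ, and the erythroid gate averages 1790 CPM of GPX1 in both breeds.

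Across development KIF22 fell from 58.4 ± 17.2 CPM at E16 and E18 to 43.4 ± 15.1 at E21 and E28 (SD, n = 4), with overlapping libraries. The log2 ratio of late to early libraries was -0.62 ± 0.09 (SE, edgeR with breed as a block, adjusted p = 0.0037), in a comparison that called 34.7% of 14353 genes (17.4% higher and 17.2% lower in late libraries). This call held under each of the 17 alternatives tried, and without both E16 libraries the ratio was -0.54 (adjusted p = 0.040).

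In the comparison of each gate with the mean of the other gates, 12155 genes were tested per gate. On counts simulated for the myocyte gate, with few genes changed, unchanged genes made up a larger share of the calls than the threshold allows. The other gates were not simulated, so each gate call below is to be read with more doubt than its adjusted p states. The same excess was seen on simulated counts for the stage test. The share of genes called was 55.2% in the neuron gate, 46.0% in the erythroid, 41.7% in the endothelial, 35.8% in the myocyte, 33.7% in the neural progenitor and 30.4% in the fibroblast-marker gate. It was 29.7% in the sclerotome and cartilage gate, 25.9% in the neural crest and glia, 25.8% in the myogenic progenitor, 22.8% in the macrophage, 20.9% in the cardiac muscle and 18.8% in the epithelial gate. KIF22 was lowest in the neuron gate, with 3.08 to 26.3 CPM and a log2 ratio to the mean of the other gates of -2.44 ± 0.26 (edgeR adjusted p = 7.4e-13). It was higher in the neural progenitor gate (0.81 ± 0.17, adjusted p = 1.5e-04), the myogenic progenitor gate (0.63 ± 0.15) and the sclerotome and cartilage gate (0.57 ± 0.14). For the erythroid gate the fitted ratio was 0.69 ± 0.19 although the raw level was 26.2 CPM against 53.0 in the fibroblast-marker gate. That ratio is on scaled counts, from libraries in which the 10 most abundant genes took 39.6 to 73.0% of the UMIs of the gate. It ran from 0.56 to 0.8 over 14 alternatives, which included relative log expression size factors and DESeq2, and stayed called. Over all genes tested, the median fitted log2 ratio was -0.21 in the erythroid gate and -0.32 in the macrophage gate.

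PPP4C lies on the same chromosome as KIF22 (chr3:18262817-18271588, plus strand), 221.1 kb away. It measured 53.0, 57.1, 44.9 and 53.8 CPM in ZZ and 42.6, 38.4, 29.3 and 39.6 CPM in DZ from E16 to E28. The breeds did not overlap, and the ZZ level was 1.25, 1.49, 1.53 and 1.36 times the DZ level. Among the 8 tested genes of the 19 that lie between KIF22 and PPP4C, none was called (edgeR, 2 at an unadjusted p under 0.05, DESeq2 0) and the median log2 DZ/ZZ ratio was -0.04. The 8 measured genes of a protein phosphatase 4 list, regulatory subunits and related catalytic subunits, held a median of 0.05 and a range of -0.05 (PPP2CA) to 0.14 (PPP4R3A), with none called (edgeR, 0 at an unadjusted p under 0.05, DESeq2 0).

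Of the 12 gates, PPP4C passed the test against the others in the neuron gate alone, with a log2 ratio of -0.45 ± 0.12 (edgeR adjusted p = 0.0013) and a mean of 35.0 CPM. On the CPM scale the erythroid gate was lower still, at 17.4 CPM against 27.8 to 52.9 in the gates other than the erythroid, but after TMM scaling its log2 ratio was 0.13 (adjusted p = 0.49). Mitotic-marker cells held 47.6 ± 9.74 CPM and cells without markers 40.7 ± 8.48, a log2 ratio of 0.19 ± 0.05 (adjusted p = 0.016) that was higher in 8 of 8 libraries but missed the threshold without the E28-DZ library (adjusted p = 0.067). Stage did not pass for PPP4C (log2 ratio of late to early -0.38 ± 0.13, adjusted p = 0.059). It missed under 15 of 17 alternatives and passed with DESeq2 and with no doublets removed.

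TFAP4 (chr3:38043735-38060820, plus strand) measured 12.4, 21.3, 19.98 and 16.3 CPM in ZZ and 6.12, 14.4, 9.65 and 10.4 CPM in DZ. The breeds overlapped across stages, as E18-DZ exceeded E16-ZZ, but at each stage ZZ was higher, by 2.02, 1.48, 2.07 and 1.56 times. The mean log2 ratio was -0.82 ± 0.25. TFAP4 was called higher in 6 gates and lower in 2. In the myogenic progenitor gate the log2 ratio to the mean of the other gates was 0.80 ± 0.16 (edgeR adjusted p = 8.0e-05). There ZZ libraries held 6.28 to 35.1 CPM and DZ libraries 5.86 to 19.9. This was the 1 call of 8 TFAP4 gate calls that held under all alternatives. On the CPM scale the mean was 17.6 in that gate, 16.2 in the neural progenitor gate and 15.4 in the neuron gate. The mean of the other gates includes the cardiac muscle gate (4.3 CPM) and the endothelial gate (7.34 CPM), which raises the ratio. Neither stage (log2 ratio -0.11, adjusted p = 0.74) nor mitotic state (-0.08, adjusted p = 0.46) passed for TFAP4. The result for mitotic state changed with cells thinned to 2000 UMIs, where TFAP4 was called lower in mitotic-marker cells. Thinning also left out shallower cells and changed which cells fell in each state, so these changes and depth cannot be told apart. The TFAP4 ratio missed the threshold under the other 11 of 12 alternatives, and all ratios lay between -0.43 and -0.02. The 18 genes of a basic helix-loop-helix leucine zipper list held a median log2 DZ/ZZ ratio of 0.00, from -0.49 (MYCL) to 0.30 (MXD1), with none called (edgeR, 0 at an unadjusted p under 0.05, DESeq2 0).

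GPX1 (chr13:31916269-31917337, minus strand) measured 518, 438, 310 and 386 CPM in ZZ from E16 to E28. In DZ it measured 337, 286, 207 and 244 CPM. The breeds overlapped across stages, but at each stage ZZ was higher, by 1.54, 1.53, 1.50 and 1.58 times. The mean log2 ratio was -0.62 ± 0.03. In the fibroblast-marker gate the ZZ libraries held 505, 376, 283 and 367 CPM and the DZ libraries 261, 234, 186 and 240, so that there too ZZ was higher at every stage.

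In the erythroid gate, set by genes of red blood cells, the breeds were closer. There GPX1 measured 1450, 1610, 1720 and 2380 CPM in ZZ and 1750, 1860, 1210 and 2330 CPM in DZ from E16 to E28. Both breeds averaged 1790 CPM, and DZ was higher at 2 of the 4 stages. Erythroid-gated cells were 1.40, 3.13, 0.43 and 0.465% of ZZ cells and 2.02, 1.58, 0.674 and 0.566% of DZ cells, a share whose part in the whole-library GPX1 values was not tested. Over all gates, DZ was lower in 37 of 39 pairs of gate and stage.

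Against the other gates GPX1 was highest in the erythroid gate (log2 ratio 3.97 ± 0.10, edgeR adjusted p = 3.8e-45) and next in the macrophage gate (1.75 ± 0.20, adjusted p = 3.5e-11), which rested on 3 libraries with 924 to 1550 CPM. These folds are on the TMM scale, which raises erythroid values. On the CPM scale the mean was 1790 in the erythroid gate, 1270 in the macrophage gate and 222 to 494 in the other 10 gates. In 9 other gates it was lower, from -0.42 in the neuron gate to -0.97 in the neural progenitor gate. Each of these ratios is to a mean that includes the erythroid and macrophage gates, which lowers it. The neuron gate, at 347 CPM, lay inside the 222 to 494 CPM of the 10 gates, so its call does not make it low among them. Of the 11 GPX1 gate calls, 7 held under every alternative. The neuron-gate call was lost without E18-ZZ (-0.31), E18-DZ (-0.33) or E28-ZZ (-0.34), the cardiac muscle call without E21-ZZ, and the myogenic progenitor and the neural crest and glia calls without E21-ZZ, E28-ZZ or E28-DZ. GPX1 fell with development, from 395 ± 104 CPM at E16 and E18 to 287 ± 78.6 at E21 and E28 (log2 ratio -0.65 ± 0.15, adjusted p = 0.016). That call was lost without the E16-DZ library (-0.56, adjusted p = 0.057) and without both E16 libraries (-0.42, adjusted p = 0.12). The difference between mitotic-marker cells and cells with no marker (-0.20 ± 0.07, adjusted p = 0.0497) lay at the threshold and was lost without any 1 library other than E16-ZZ, with adjusted p from 0.052 to 0.12. The 19 measured peroxide and glutathione enzymes of a list made for GPX1 had a median log2 DZ/ZZ ratio of -0.08, from -0.28 (SOD2) to 0.24 (GCLM), and none passed (edgeR, 0 at an unadjusted p under 0.05, DESeq2 0).

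CYP2J34 (chr6:152468950-152496516, plus strand) measured 5.41, 10.8, 2.57 and 5.58 CPM in ZZ from E16 to E28. In DZ it measured 23.3, 26.6, 12.4 and 12.4 CPM. No DZ library overlapped the ZZ libraries, and the DZ level was 4.31, 2.46, 4.82 and 2.23 times the ZZ level (mean log2 ratio 1.71 ± 0.56). Inside the gates DZ was higher in 37 of 39 pairs of gate and stage. The exceptions were the epithelial gate at E21, with 10.1 CPM in ZZ and 6.78 in DZ, and the macrophage gate at E28, with no UMI in either breed.

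The read split of CYP2J34 is uncertain, because 4 other CYP2J-like genes lie beside it. RefSeq places a copy named as cytochrome P450 2J2 at 6.3 kb, others at 10.1 and 57.0 kb named 2J2-like, and a pseudogene at 52.7 kb. Reads that fit several copies equally well are not counted for any of them. CYP2J34 was higher in the endothelial gate than in the mean of the other gates (log2 ratio 0.73 ± 0.24, edgeR adjusted p = 0.0093), with 2.60 to 12.3 CPM in ZZ and 16.8 to 34.5 CPM in DZ. It was not the highest gate, since the mean was 16.3 CPM there, 18.5 in the neuron gate, 16.3 in the neural crest and glia gate and 16.0 in the epithelial gate. It fell with development (-1.15 ± 0.28, adjusted p = 0.018), from 16.5 ± 10.1 to 8.25 ± 4.98 CPM, a call lost without E16-DZ (adjusted p = 0.051), without E18-ZZ (0.053) and without both E16 libraries (0.064). The 12 genes of an arachidonate and CYP2 enzyme list ranged in log2 DZ/ZZ ratio from -0.87 (CYP2S1) to 1.27 (PTGS2) with a median of -0.10 and none called (edgeR, 0 at an unadjusted p under 0.05, DESeq2 0).

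KANK2 (chr2:69896116-69925194, minus strand) measured 8.89, 10.5, 12.1 and 28.7 CPM in ZZ from E16 to E28. In DZ it measured 15.4, 17.5, 21.4 and 50.4 CPM. The E28 myotome libraries were the highest of each breed, and the breeds overlapped across stages. At each stage DZ was higher, by 1.74, 1.67, 1.77 and 1.76 times, a mean log2 ratio of 0.79 ± 0.04. The 10 other KANK family and talin adhesion genes had a median ratio of 0.12, from -0.19 (TLN2) to 0.30 (VCL), with none called (edgeR, 0 at an unadjusted p under 0.05, DESeq2 0).

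Among the gates, KANK2 stood highest in the fibroblast-marker gate (log2 ratio 1.27 ± 0.16, edgeR adjusted p = 1.0e-09), where it held 12.1 to 31.9 CPM in ZZ and 21.2 to 61.7 in DZ. It was also higher in the endothelial gate (0.93 ± 0.20) and in the sclerotome and cartilage gate (0.72 ± 0.19), and lower in the neuron gate (-1.50 ± 0.31) and the erythroid gate (-2.36 ± 0.51), and these 5 of its 8 gate calls held under every alternative. Mitotic-marker cells held less KANK2 than cells with no marker, 15.7 ± 7.16 against 22.9 ± 15.9 CPM (log2 ratio -0.49 ± 0.11, adjusted p = 0.0053, lower in 7 of 8 libraries). The late libraries held 28.2 ± 16.3 and the early ones 13.1 ± 4.05 CPM, a difference that missed the threshold (log2 ratio 0.93 ± 0.32, adjusted p = 0.058). It missed under 13 of 17 alternatives and passed with DESeq2, without E21-ZZ, without E21-DZ and with embryonic day as a number.

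HCLS1 (chr13:138852387-138883088, plus strand) differed by cell population. Whole libraries held 2.57, 1.28, 1.21 and 2.02 CPM in ZZ and 2.16, 1.38, 2.59 and 5.72 CPM in DZ from E16 to E28. Stage did not pass (log2 ratio of late to early 0.29 ± 0.49, edgeR adjusted p = 0.67). The breeds overlapped, and the DZ level was 0.842, 1.08, 2.14 and 2.83 times the ZZ level. The mean log2 ratio was 0.61 ± 0.82, and 1.44 with a mitochondrial limit of 5% in place of 10%.

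The myocyte gate, set by markers of differentiated muscle, held the largest mean difference of the gates. At E18 it held 1 HCLS1 UMI in ZZ (1.39 CPM) and 7 in DZ (8.38 CPM), a ratio of 6.01 (interval 0.773 to 271). At E21 it held 0 UMIs in ZZ and 56 in DZ (23.0 CPM), at least 15.0-fold higher in DZ when ZZ is set to a floor of 3 counts, with an exact interval that began at 11.8. At E28 it held 3 UMIs in ZZ (1.09 CPM) and 153 in DZ (27.7 CPM), a ratio of 25.3 (interval 8.50 to 124). All DZ values lay above all ZZ values in this gate, and the E16 libraries had too few myocyte-gated cells to be used.

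**Figure D3:**
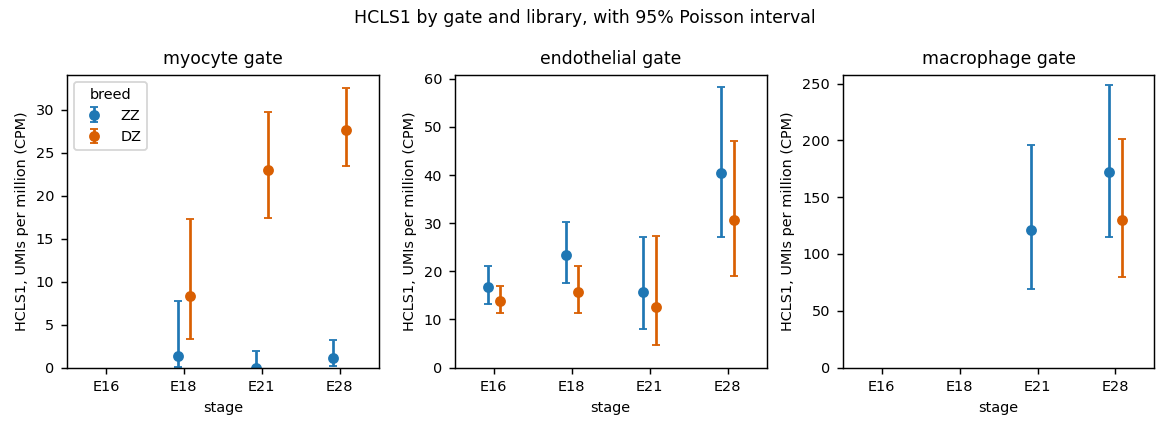
HCLS1 in CPM (linear axes that differ between panels) in the myocyte, endothelial and macrophage gates by stage, with ZZ in blue, DZ in orange and bars for the exact 95% Poisson interval. Only libraries with at least 20 gated cells are drawn. The myocyte gate reads 23.0 and 27.7 CPM in DZ against 0 and 1.09 in ZZ at E21 and E28, while in the endothelial gate ZZ is the higher breed at each stage with overlapping intervals.

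Per cell, 43 of 358 myocyte-gated cells of E21-DZ (12.01%, exact binomial interval 8.83 to 15.84%) and 112 of 1003 of E28-DZ (11.17%, 9.28 to 13.28%) had an HCLS1 UMI. In ZZ these were 0 of 330 cells at E21 (interval up to 1.11%) and 3 of 462 at E28 (0.65%, 0.13 to 1.89%). Each interval is over the cells of 1 library and leaves out the spread between embryos, sows and libraries. Since these counts served in the choice of the gene, the shares are a description and no test of breed. Median depth was 5297 UMIs in ZZ and 6387.5 in DZ at E21, and 5374.5 and 4664 at E28. With each cell thinned to 2000 UMIs, the expected share with an HCLS1 UMI was 0.0 and 4.08% at E21 and 0.20 and 4.57% at E28, in ZZ and DZ in turn. The thinning left out 13 and 14 cells at E21 and 21 and 25 at E28. As a background level, 1 of 217 myogenic progenitor-gated cells of E21-DZ (0.46%, median depth 6022 UMIs) and 0 of 451 of E28-DZ (interval up to 0.81%, 4207 UMIs) had an HCLS1 UMI.

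Macrophage markers, from the cells in which HCLS1 is best known, were near 0 in the myocyte gate. The 13 macrophage markers summed to 2.35 to 11.1 CPM there, with 3 to 6 markers detected per library and TYROBP, MS4A7 and PTPRC at 0 in all 6 libraries, against 10670 to 13730 CPM in the macrophage gate. As many as 2 macrophage markers were found in 0 of the 162 DZ myocyte-gated cells with HCLS1 and in 0 of the 1355 without it, so that this count does not set the 162 cells apart. The part of macrophage RNA in the HCLS1 counts was not tested. The cells with HCLS1 carried a median of 10 myocyte markers and 6442 UMIs, against 7 markers and 4872 UMIs in those without it.

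The myocyte gate gave 47.1% of all HCLS1 UMIs of E21-DZ and 63.5% of those of E28-DZ, against 0.0 and 3.4% in ZZ. Outside that gate the library levels were 1.26 in ZZ and 1.45 CPM in DZ at E21, and 2.09 and 2.41 CPM at E28. Myocyte-gated cells were 3.15% of ZZ and 3.89% of DZ cells at E21, and 4.68 and 9.15% at E28.

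In the endothelial gate the ZZ libraries held 16.7, 23.3, 15.6 and 40.5 CPM of HCLS1 and the DZ libraries 13.9, 15.7, 12.6 and 30.7. ZZ was 1.20, 1.48, 1.24 and 1.32 times DZ, and the counting interval of each ratio included 1. The macrophage gate held 121 and 172 CPM in the ZZ libraries of E21 and E28 and 130 CPM in E28-DZ. In the fibroblast-marker gate DZ was 0.948, 1.2, 1.38 and 2.01 times ZZ from E16 to E28. There the interval included 1 at each stage but E28 (39 UMIs in DZ and 23 in ZZ, 1.17 to 3.53).

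HCLS1 was higher than in the other gates in the macrophage gate (log2 ratio 7.14 ± 0.48, edgeR adjusted p = 4.6e-21) and the endothelial gate (4.42 ± 0.29, adjusted p = 7.2e-22). In the myocyte gate the log2 ratio was 3.04 in the fit of all libraries, 4.93 in a fit of the DZ libraries alone and 0.72 in a fit of the ZZ libraries alone. The ZZ value rests on 1, 0 and 3 UMIs at E18, E21 and E28. All 3 values rest on the counts for which the gene was chosen, so they are given with no test. In the 13 genes of a cortactin and branched actin list, no gene was called in DZ against ZZ (edgeR, 2 at an unadjusted p under 0.05, DESeq2 0), with log2 ratios from -0.29 (ARPC1B) to 0.14 (LYN).

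The 3' end of HCLS1 overlaps that of FBXO40, a muscle F-box gene on the minus strand, over 1561 bases (chr13:138881528-138883088). The 3' chemistry keeps the strand, and FBXO40 had 0 to 2 UMIs in the myocyte gate of any library. The part of this overlap in the HCLS1 counts was not tested.

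ADGRE3 (chr2:64623246-64682366, plus strand) had 6, 23, 27 and 34 UMIs in ZZ from E16 to E28 and 0, 0, 0 and 1 in DZ. In CPM these were 0.151, 0.399, 0.615 and 0.791 in ZZ and 0.0238 in E28-DZ. With each DZ library at 0 set to a floor of 3 counts, the ZZ level was at least 2.89-fold higher at E16, 7.02-fold at E18 and 9.43-fold at E21. That floor leaves out the counting error of ZZ, and the exact intervals of the ratios began at 1.70, 5.26 and 7.16. At E28, with 1 DZ UMI, the ratio was 33.3 (interval 5.59 to 1350). Its counts did not pass the low-count filter of the fits over all 8 libraries. Without that filter ADGRE3 was called in 0 of 12 gates, where 22.1% of all gene and gate pairs were called. It was not called by stage either (log2 ratio of late to early 1.24 ± 0.68). These fits rest on the ZZ counts for which the gene was chosen, so they are no test of it. The fibroblast-marker gate held 52 of the 90 ZZ UMIs and the only DZ UMI. Since that gate also held 30.8, 32.0, 39.1 and 83.8% of ZZ cells from E16 to E28, no location is read from this count. The macrophage and erythroid gates held 0 UMIs in both breeds. At their depth the exact interval of a count of 0 reached 22.7 to 27.8 CPM in the macrophage gate and 2.0 to 11.4 CPM in the erythroid gate. Levels below these could not be told from 0 there. None of 12 tested adhesion G protein-coupled receptor genes was called (edgeR, 1 at an unadjusted p under 0.05, DESeq2 0), with log2 DZ/ZZ ratios from -0.28 (ADGRG6) to 0.47 (ADGRL3).

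ENSSSCG00000031855 has no gene name in the files, and its position and product are not analysed here. It had 2, 4, 11 and 8 UMIs in ZZ from E16 to E28 and 44, 183, 203 and 390 in DZ. In CPM, ZZ held 0.0503, 0.0694, 0.251 and 0.186 and DZ held 0.767, 3.47, 4.41 and 9.26. The breeds did not overlap, and DZ was 15.2 (interval 3.98 to 130), 50.0 (19.2 to 185), 17.6 (9.64 to 35.9) and 49.8 (25.0 to 116) times ZZ.

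Inside the gates DZ was higher in 32 of 39 pairs of gate and stage, and no UMI was found in either breed in the other 7. The myocyte gate held 0, 0.512 and 0.730 CPM in ZZ and 16.8, 17.6 and 21.0 CPM in DZ at E18, E21 and E28. The neural crest and glia gate held 0, 0, 0.782 and 1.39 CPM in ZZ and 6.22, 10.4, 12.0 and 27.4 CPM in DZ from E16 to E28. The endothelial gate held 2 UMIs in all.

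ENSSSCG00000031855 had 25 UMIs in all ZZ libraries and 820 in DZ, so it passed the low-count filters through the breed for which it was chosen, and the fit of gates in the ZZ libraries alone could not include it. Its fitted contrasts are therefore given with no test. The log2 ratio to the other gates was 2.20 ± 0.32 in the myocyte gate, 1.87 ± 0.30 in the neural crest and glia gate and -3.62 ± 0.64 in the endothelial gate, and that of late to early libraries was 1.58 ± 0.49. Among the other 7 genes tested for stage, 3 passed (KIF22, GPX1 and CYP2J34), where 34.7% of all 14353 genes passed, so that the count is near the background.

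**Figure D4:**
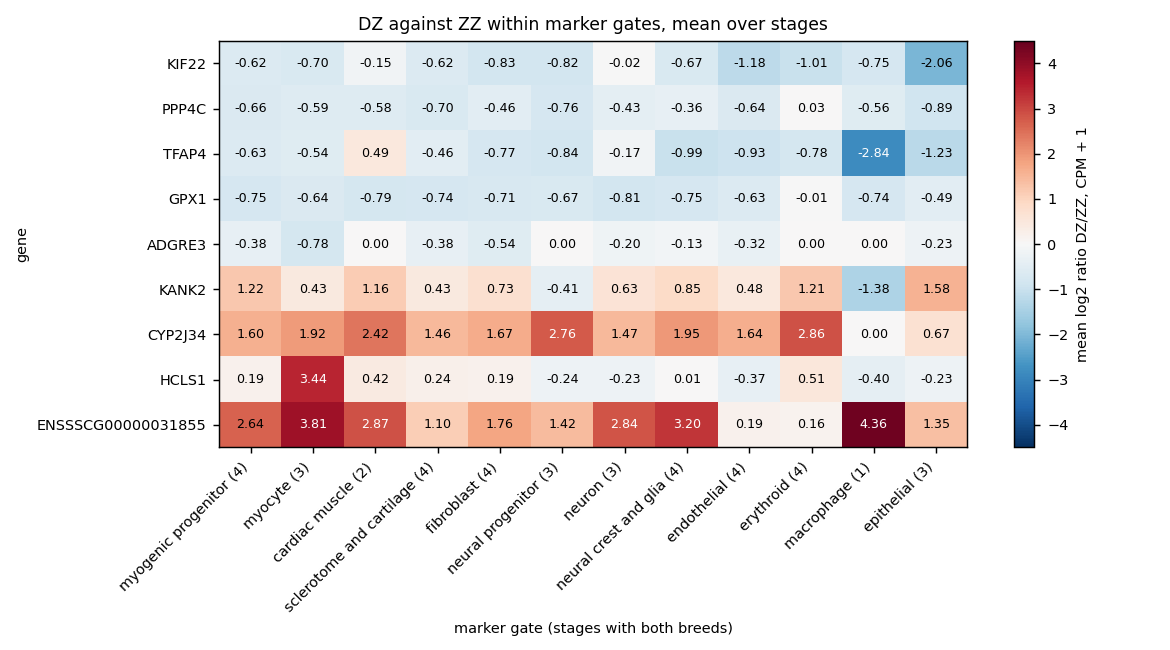
Mean over stages of the log2 ratio DZ/ZZ of CPM + 1 for each gene (rows) in each marker gate (columns, with the number of stages that had both breeds), from blue (lower in DZ) to red (higher in DZ). HCLS1 reads 3.44 in the myocyte gate and -0.37 in the endothelial gate, whereas GPX1 is negative in every gate and -0.01 in the erythroid gate.

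The gate sums are parts of the library sums and served in the choice of the genes, so their side is a description only. DZ was lower in 36 of 39 pairs of gate and stage for KIF22, 36 for PPP4C and 35 for TFAP4, and higher in 34 for KANK2. ADGRE3 was lower in DZ in 14 pairs and had the same level, 0, in the other 25. HCLS1 was split, with DZ higher in 15 pairs, lower in 13 and equal in 11.

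**Figure D5:**
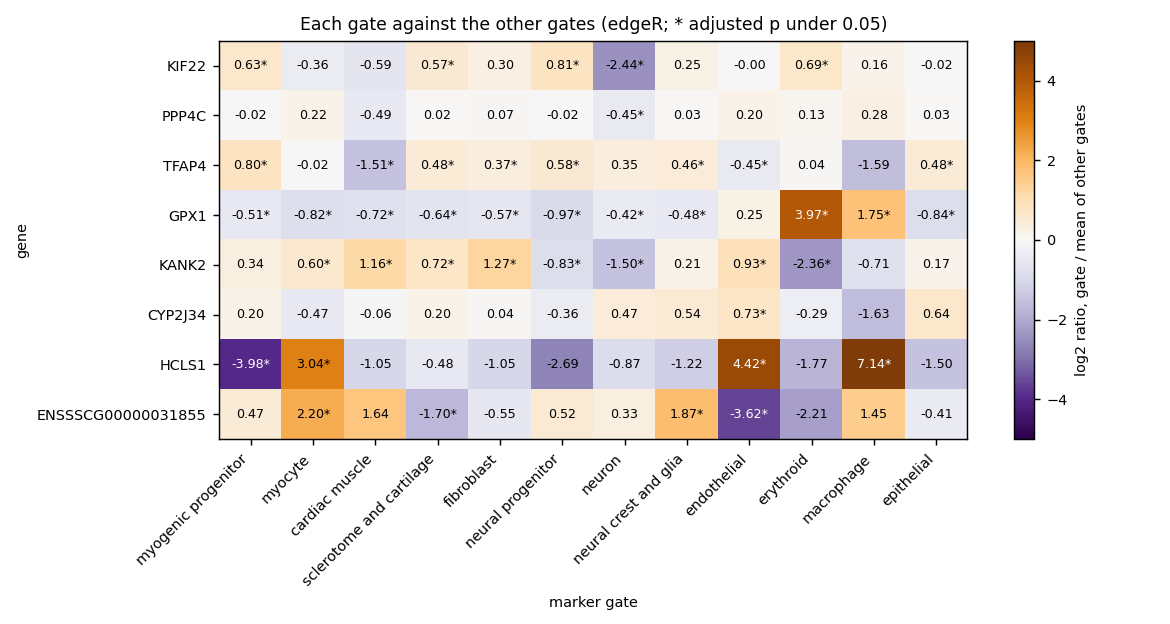
Fitted log2 ratio of each gate (columns) to the mean of the other gates for 8 genes (rows), in orange where higher and purple where lower, with an asterisk for an edgeR adjusted p under 0.05, which is no test for ENSSSCG00000031855 or for HCLS1 in the myocyte gate, whose DZ counts chose them. GPX1 reads 3.97 in the erythroid gate on the TMM scale (1790 CPM against 222 to 494 in 10 gates), HCLS1 7.14 in the macrophage gate and 4.42 in the endothelial gate, and KIF22 -2.44 in the neuron gate.

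Of 96 pairs of gene and gate, 42 were called, 4 of them for ENSSSCG00000031855 and 1 for HCLS1 in the myocyte gate, while 32.2% of all 145860 gene and gate pairs were called in the same fits (20.3% higher and 12.0% lower), and 25 of the 42 held under every one of the 11 to 14 alternatives tried for a pair. The gate patterns named most alike among 9962 genes, by Pearson correlation of log2 CPM over 79 gate-by-library sums that share libraries, were CCL4 (0.85) and CCL14 (0.85) for HCLS1, ALAS2 (0.78) and HACD4 (0.77) for GPX1, and ARHGAP11A (0.81) and FANCD2 (0.81) for KIF22. For KANK2 they were SPARC (0.75) and FKBP7 (0.74), and for PPP4C FAM114A2 (0.83) and EIF4A1 (0.79). For TFAP4 they were TMEM39B (0.83) and CCDC191 (0.79), and for CYP2J34 USP53 (0.63) and ENSSSCG00000025060 (0.61). The highest values for ADGRE3 (MMP11, 0.39) and ENSSSCG00000031855 (ENSSSCG00000042291, 0.52) were lower. ALAS2 is itself a marker that set the erythroid gate, so its pattern over gates is partly fixed by the gating.

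The genes beside the 8 placed genes on their chromosomes were looked at in the same breed fit. Among the 78 nearest tested genes, 5 on each side, none was called (edgeR, 5 at an unadjusted p under 0.05, or 6.41%, DESeq2 0), with a median log2 DZ/ZZ ratio of -0.02 against -0.01 over all genes. The 104 tested genes of the 8 lists likewise held 0 calls (edgeR, 4 at an unadjusted p under 0.05, or 3.85%, DESeq2 0). In an edgeR fit that called 1 of 14353 genes, an absence of calls carries little information.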

How the data were processed

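The deposited counts are UMI counts per gene and cell, which the authors made with Cell Ranger (3.1.0 for the E16 libraries and 3.0.2 for the others per the file headers) on Sscrofa11.1, a Duroc genome, with Ensembl annotation; the effect of that reference on reads of either breed was not tested. Barcodes with at least 200 genes, at most 30000 UMIs and at most 10% mitochondrial UMIs (13 genes) were kept, and 8247 doublets were removed as the highest Scrublet scores (scanpy 1.11.5, 0.8% per 1000 barcodes). Of 131 gate markers 120 were measured. Counts were summed per library, gate (at least 20 cells) or mitotic state. The quasi-likelihood test of edgeR 4.0.16 (R 4.3.3, TMM, low counts filtered) was used with Benjamini-Hochberg adjustment over all genes, blocked by stage for breed and by breed for stage, with DESeq2 as an alternative. On simulated counts, unchanged genes made up more of the calls of the gate (myocyte gate only), stage and breed tests than nominal. The members and lists were chosen with earlier results of these data known. Named genes are the members, their 8 lists, the 5 nearest genes on each side and the 2 genes most alike over gates among those with a mean of at least 5 CPM. Positions are from RefSeq. Each group is 1 library, so p-values measure spread between libraries of different stages or gates. No sequences are shown.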

Additional observations from a re-analysis of the deposited data

Results flagged for a closer look

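Among 18 sets of 4 libraries (9 genes in each breed), 3 had a library whose gap to the nearest other was large for the range of its set. KANK2 read 28.7 CPM in E28-ZZ, against 8.89 to 12.1 in the other ZZ libraries, and 50.4 CPM in E28-DZ, against 15.4 to 21.4 in the other DZ libraries. ADGRE3 read 0.0238 CPM in E28-DZ, which is 1 UMI, against 0 in the other DZ libraries. With the other DZ libraries at 0, any UMI in a single library would be flagged, so this flag carries no information. For 4 like libraries without such ties chance gives a flag in about 1 of 20. The libraries of a set differ in stage, and E28 also in tissue, so that rate does not apply to the KANK2 flags.

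HCLS1 had mean ratios of opposite sign in 2 populations. The mean log2 ratio DZ/ZZ of CPM + 1 was 3.44 in the myocyte gate, with DZ higher at each of 3 stages, and -0.37 in the endothelial gate, with DZ lower at each of 4 stages but with a counting interval that included no difference at every stage (168 UMIs in ZZ and 169 in DZ). The difference was not tested.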

How the results depend on the processing

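By replicate number, no paired analysis was possible because each group is 1 sample and the labels give no replicate numbers, whereas the breed fit itself pairs DZ with ZZ by stage, as a block. The breed fit called 1 gene, 62 with DESeq2 (33 higher and 29 lower in DZ), and 0 with a mitochondrial limit of 5%, with no mitochondrial limit, without the E16 libraries and without any single library (lowest and highest 0). The stage fit called 4975 genes, 1472 without the E16 libraries and 3017 to 4625 without 1 library, the lowest without E16-DZ. For gates, 42 of 96 pairs of gene and gate were called (32.2% over all genes). Of the 42, 4 were for ENSSSCG00000031855, which like the HCLS1 call in the myocyte gate are no test. The count was 16 of 70 with ZZ libraries only (22.9%, and 19.7% over all genes) and 18 of 80 with DZ libraries only (22.5% and 19.8%). These alternatives were chosen after seeing the data and test fewer samples and gates. The DZ fit includes ENSSSCG00000031855 and the ZZ fit does not, so the counts are not over the same pairs. None of the values that changed sign was called in the report except the TFAP4 ratio in the epithelial gate, which was -0.12 with DZ libraries only. For late against early, HCLS1 read -0.03 without E18-DZ and -0.08 without E28-DZ (range without 1 library -0.08 to 0.71), and TFAP4 read 0.01 without E18-ZZ and 0.13 without E18-DZ (-0.28 to 0.13). For mitotic state, HCLS1 read -0.09 without E21-ZZ and -0.08 without E28-ZZ (-0.09 to 0.35). The cause of these changes was not tested. Without 1 library, and so without its stage, the mean log2 breed ratio of HCLS1 ran from 0.32 to 0.90 around 0.61. With a mitochondrial limit of 5% it was 1.44 for HCLS1 and 0.94 for KANK2. With equal weight for each gate it read 0.58 for KANK2 and 2.14 for ENSSSCG00000031855, but on the log2(CPM + 1) scale, so that scale and weighting changed together and the move cannot be put down to either. ENSSSCG00000031855 had no ratio at the 5% limit, where a ZZ library held no UMI. Depth limits ADGRE3, HCLS1 and ENSSSCG00000031855 most, whose gate values often rest on fewer than 5 UMIs.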
